A study of Mus musculus with 36 samples.

Results

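The Ang II response of HPC-1, a progenitor population of the bone marrow (BM), was examined in *Apoe*-/-*Il27ra*-/- mice, which lack the IL-27 receptor (IL-27R). The members are the 7 libraries that the deposited labels give as HPC-1 of this genotype, 4 after Ang II and 3 after PBS, out of 36 libraries in the series. The labels name HPC-1 ST-HSC. The study compared LT-HSC and HPC-1 between *Apoe*-/- mice with intact *Il27ra*, with 1 copy of it (*Apoe*-/-*Il27ra*+/-) and with none, in a model of abdominal aortic aneurysm, and the comparison here asks which transcripts of HPC-1 differ after Ang II when IL-27R is missing. For each sample 5000 cells were sorted that by the labels carried CD48 but not CD150 (a legend of the study gives CD150 as present), within the lineage-negative cells with Sca-1 and c-Kit, and total RNA was sequenced with a stranded low-input kit.

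Both groups of mice, bred from knockout lines of the Jackson Laboratory on a C57BL/6 background, carried the *Apoe* and *Il27ra* deficiencies in all tissues. Both ate a Western diet from 8 weeks of age, for 12 weeks by the legends of the study's figures on the sorted cells, while its methods give 10 or 12 weeks over all its experiments. During the last 2 weeks 1 group received Ang II at 800 ng per kg per min and the other received PBS, both from implanted pumps. The study used mice of both genders, while the labels give no gender, age or batch for any library. The labels do not say that the replicates of a group are separate mice, and a legend of the study gives 3 mice of this genotype where the labels give 4 Ang II libraries, so the p-values below measure the spread between these samples.

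Ang II is the effector peptide of the renin-angiotensin system and raises blood pressure through its receptors in vessels, kidney and adrenal gland. IL-27R pairs with gp130 and signals through JAK kinases to STAT factors, and interferon-stimulated genes are among the best known targets of such signaling. HPC-1 are multipotent cells downstream of stem cells, and in the BM such progenitors carry low levels of transcripts of the lineages they can form, a state called lineage priming.

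The 3 PBS libraries held 3175532, 3254832 and 4475778 counts. The 4 Ang II libraries held 3523523, 2857301, 3722262 and 5212330 counts. PBS replicate 3 and Ang II replicate 4 thus held over 4 M counts and the other 5 libraries held less. Levels are given as counts per M counts (CPM) after TMM normalization, always in the order of replicate numbers, PBS before Ang II. A count of 3 was taken as the floor of detection in each library, which lies between 0.576 and 1.05 CPM and covers counting error only.

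The deep libraries also stood apart in their sex-linked transcripts. *Xist*, the noncoding RNA of the inactive X chromosome, was at 5.57, 0.297 and 4155 CPM after PBS and at 1.66, 0.342, 0.548 and 3626 CPM after Ang II. The 4 Y-linked genes *Ddx3y*, *Uty*, *Kdm5d* and *Eif2s3y* had 0 counts in PBS replicate 3 and in Ang II replicate 4, and *Ddx3y* was at 90.7 and 107 CPM in the other PBS libraries and at 87.8, 94 and 71 CPM in the other Ang II libraries. High *Xist* without Y-linked transcripts and a total above 4 M counts therefore marked the same 2 libraries, and the 2 properties cannot be told apart in these samples. Each treatment group has 1 such library, so both groups are affected. Across genes, the deviations from the group means of these 2 libraries correlated at r = 0.36, against 0.14, 0.08 and −0.15 for Ang II and PBS libraries with the same replicate number. This is a description over genes, which are not independent replicates.

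*Il27ra* (ENSMUSG00000005465, minus strand of mm10 chromosome 8, 84030294 to 84042589), the gene of the deleted receptor, was at 6.5, 10.7 and 7.94 CPM after PBS and at 6.35, 5.81, 4.38 and 8.57 CPM after Ang II. The groups overlapped, with a log2 fold change of −0.41 (SE 0.46, n = 4 and 3). These levels overlapped those of HPC-1 with the gene, which were 7.89 and 11.6 CPM in PBS-infused *Apoe*-/- mice and 14.9, 10.7 and 9.59 CPM in PBS-infused *Apoe*-/-*Il27ra*+/- mice. The lowest 4 of the 7 libraries were below all of these 5, and the other 3 were not. The counts of *Il27ra* do not fully separate the genotypes in HPC-1, so they give no check of the genotype labels. *Apoe*, the deleted apolipoprotein gene that all groups lack, was at 6.81, 1.48 and 6.48 CPM after PBS and at 3.31, 0.342, 3.29 and 4.1 CPM after Ang II.

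The sort could be followed in the genes of its surface markers, here on the common scale of all 36 libraries. *Kit*, the receptor for stem cell factor, lay between 611 and 916 CPM in the 7 libraries, and *Cd48* between 45.2 and 81 CPM against a median of 0.486 CPM in the 17 LT-HSC libraries. *Slamf1*, which encodes CD150, lay between 0 and 3.74 CPM against an LT-HSC median of 44 CPM. *Ly6a*, which encodes Sca-1, was low, between 2.46 and 14.6 CPM, with a median of 15.1 CPM in LT-HSC. *Flt3* (median 441 CPM) and *Cd34* (697 CPM), which mark multipotent progenitors, stood above their LT-HSC medians of 30.6 and 105 CPM. The stem cell regulators *Mecom* and *Hlf* had medians of 33.2 and 139 CPM against 256 and 462 CPM in LT-HSC. *Procr*, *Mllt3* and *Fgd5* were likewise below their LT-HSC medians, at 4.91, 30.9 and 16.9 against 38.5, 194 and 125 CPM. The markers thus followed the sort gate in all 7 libraries, with low *Ly6a* as the exception.

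Of 13199 genes tested in a model of the 6 groups of HPC-1 in 19 libraries, edgeR's quasi-likelihood test called 0 (0%) at an adjusted p under 0.05 for Ang II against PBS when IL-27R was missing. The smallest adjusted p was 0.874, and 244 genes (1.85%) had an unadjusted p under 0.05, 151 higher (1.14%) and 93 lower (0.705%) after Ang II. On the same genes DESeq2 called 1 gene and limma-voom 0, with 285 and 573 genes at an unadjusted p under 0.05. Without PBS replicate 2 that number was 93 in edgeR, and without PBS replicate 3 it was 522. Each gene below has an adjusted p of 1 in this edgeR test unless another is given. Without the count filter, edgeR called 10 of 27858 genes on all libraries, among them *Ctsg*, *Ms4a3*, *C3* and *Slc4a1*. They also included *Muc2* and ENSMUSG00000095937, both lower after Ang II. *Muc2* had 33 counts in PBS replicate 2, ENSMUSG00000095937 had 44 in PBS replicate 3, and both had 0 in the other compared libraries. SEs were smaller in that fit (0.19 for *Ctsg*, against 0.31 with the filter), and its calls are given as a description only. Over all genes tested the median log2 fold change was 0.01, with 5th and 95th percentiles of −0.81 and 0.77 and a median SE of 0.33. The 95% interval of the log2 fold change lay within 1 of 0 for 7199 genes (54.5%), and for 96% of the 2196 genes above 100 CPM. A 2-fold difference was thus outside the interval for most abundant transcripts and inside it for most rare ones. The groups did not overlap, all 4 Ang II libraries standing on the same side of all 3 PBS libraries, for 273 genes higher (2.07%) and 288 lower (2.18%) after Ang II.

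**Figure D1:**
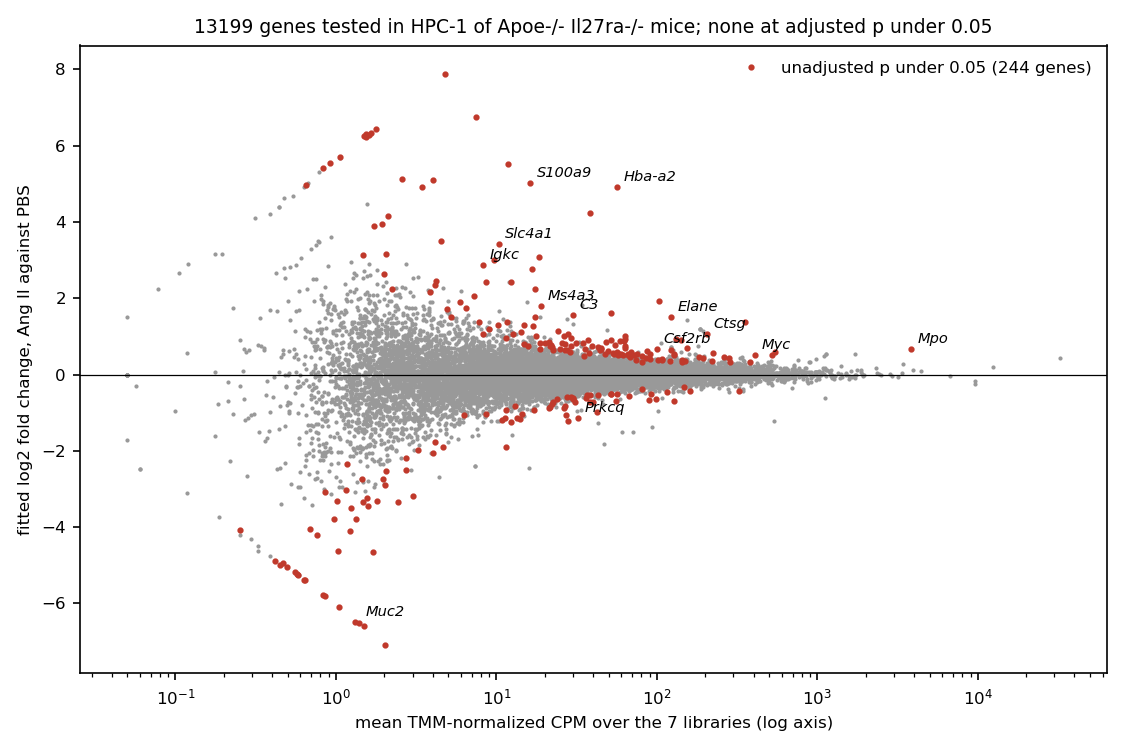
Fitted log2 fold change of each of 13199 genes in *Apoe*-/-*Il27ra*-/- HPC-1, Ang II (4 libraries) against PBS (3), over its mean CPM in the 7 libraries on a log axis. Red points are the 244 genes at an unadjusted p under 0.05, none of them called by edgeR after adjustment, and most of the far points lie at low mean CPM.

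The primary granule genes *Mpo*, *Elane* and *Ctsg* of myeloid precursors were higher in Ang II replicates 1 to 3 than in every PBS library, while receptors of the same list differed in direction. *Ms4a3*, a membrane protein of granulocyte and monocyte precursors, was likewise higher in Ang II replicates 1 to 3 than in every PBS library. *Csf1r*, the receptor for macrophage colony-stimulating factor, had a higher fitted level after Ang II, but PBS replicate 3 was above Ang II replicates 2 and 3. *Csf3r* and *Il3ra* gave log2 fold changes of −0.14 (SE 0.26) and 0.24 (SE 0.51). *Mpo*, myeloperoxidase (ENSMUSG00000009350, plus strand of mm10 chromosome 11, 87793581 to 87804413), was at 2142, 2350.3 and 4135 CPM after PBS and at 4949.5, 4433, 5708 and 3187 CPM after Ang II. Ang II replicates 1 to 3 were above every PBS library, while replicate 4 was below PBS replicate 3, and the log2 fold change was 0.67 (SE 0.24). *Elane*, neutrophil elastase (ENSMUSG00000020125, plus strand of chromosome 10, 79886247 to 79888215), was at 24.8, 40.1 and 112 CPM after PBS and at 208, 179, 234 and 57.4 CPM after Ang II. Its pattern was the same, and the log2 fold change was 1.51 (SE 0.62). *Ctsg*, cathepsin G (ENSMUSG00000040314, minus strand of chromosome 14, 56099881 to 56102574), was at 114, 92.9 and 173 CPM after PBS and at 287, 261, 332 and 170.1 CPM after Ang II. Only Ang II replicate 4 reached down to the PBS level, and the log2 fold change was 1.05 (SE 0.31). DESeq2 on the 7 libraries with Y-linked expression as a covariate called *Ctsg* (1.06, SE 0.23, adjusted p = 0.00825). That fit did not call *Mpo*, *Elane* or *Ms4a3*.

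*Ms4a3* (ENSMUSG00000024681, minus strand of chromosome 19, 11629496 to 11640851) was at 3.1, 5.34 and 14.4 CPM after PBS and at 27.9, 23.2, 51 and 7.83 CPM after Ang II. Again Ang II replicate 4 lay within the PBS range, and the log2 fold change was 1.80 (SE 0.60). *Csf1r* (ENSMUSG00000024621, plus strand of chromosome 18, 61100598 to 61132149) was at 35.3, 15.4 and 75 CPM after PBS and at 83.1, 64.2, 63 and 103 CPM after Ang II. Here the highest PBS library, replicate 3, overlapped the Ang II group, and the log2 fold change was 0.89 (SE 0.37). Of the 18 tested myeloid priming genes of 19 listed, 15 were higher and 3 lower, 5 of the higher ones with an unadjusted p under 0.05 (27.8% of the list, against 1.14% of all genes). That number was 2 without PBS replicate 1 or PBS replicate 2 and 8 without PBS replicate 3. The median log2 fold change of the list was 0.34, against 0.01 for all genes, and it stayed between 0.22 (without PBS replicate 2) and 0.63 (without PBS replicate 3) over 19 alternatives in processing. The transcription factors of the list were closer to no difference, with log2 fold changes of 0.29 (SE 0.16) for *Spi1*, 0.39 (SE 0.26) for *Cebpa*, 0.53 (SE 0.39) for *Irf8* and 0.11 (SE 0.25) for *Gfi1*. *Spi1*, which encodes PU.1, was the member whose groups did not overlap, at 92.6, 71.2 and 93.4 CPM after PBS and at 113, 96, 104 and 106 CPM after Ang II. *Klf5* of this list was near the floor, between 0 and 2.48 CPM in the 7 libraries, and was not tested.

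**Figure D2:**
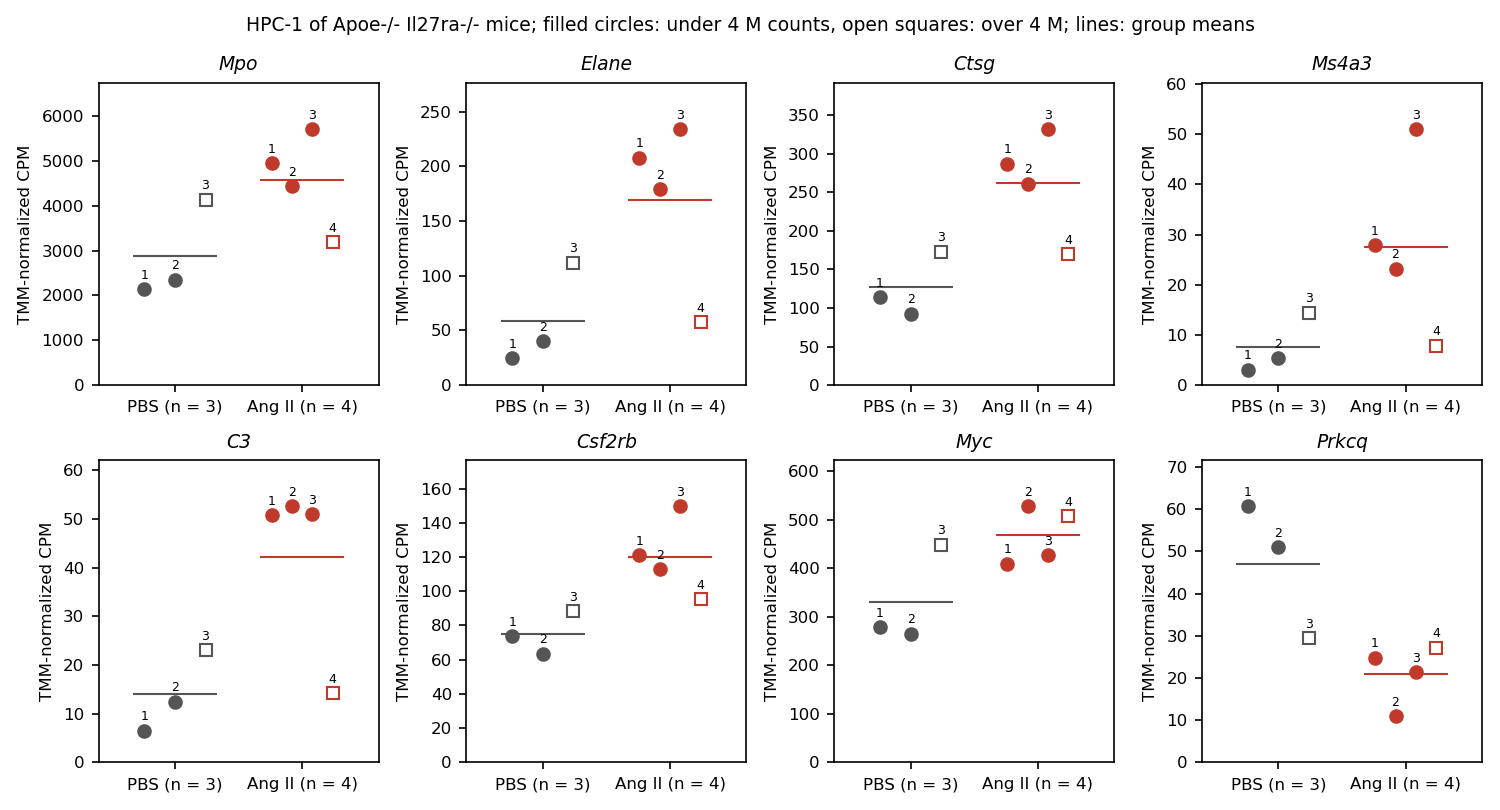
TMM-normalized CPM (linear axis from 0) of 8 genes in each *Apoe*-/-*Il27ra*-/- HPC-1 library, numbered by replicate, with lines at the group means. For *Mpo*, *Elane*, *Ctsg*, *Ms4a3* and *C3*, Ang II replicates 1 to 3 lie above all PBS libraries, while the deep Ang II replicate 4 (open square) lies at or below the deep PBS replicate 3.

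Within the libraries under 4 M counts the same contrast gave calls. This choice left out PBS replicate 3 and Ang II replicate 4. For *Mpo*, *Elane*, *Ctsg* and *Ms4a3* these were the highest PBS and the lowest Ang II library. The adjusted p-values below therefore describe the libraries kept and are no support for a difference over all 7. With 3 Ang II and 2 PBS libraries, in a model of the 15 HPC-1 libraries under 4 M counts, edgeR called 12 of 12872 genes, all higher after Ang II, with 448 genes at an unadjusted p under 0.05. The called genes included 5 of the 18 tested myeloid priming genes at an adjusted p under 0.05, counting *Mpo*, *Elane*, *Ctsg*, *Ms4a3* and *Prtn3*, which encodes proteinase 3. Mean *Elane* in these libraries was 32.4 CPM after PBS and 207 CPM after Ang II, a log2 fold change of 2.67 (SE 0.33, edgeR adjusted p = 0.0014). Mean *Mpo* was 2246 CPM after PBS and 5030.3 CPM after Ang II, a log2 fold change of 1.16 (SE 0.17, edgeR adjusted p = 0.00517). *Ctsg* gave 1.50 (SE 0.28), *Ms4a3* 3.00 (SE 0.55) and *Prtn3* 1.45 (SE 0.24) on the log2 scale. With all libraries *Prtn3* gave 0.75 (SE 0.38), and PBS replicate 3, at 219 CPM, was above Ang II replicates 1 and 4, at 199 and 182 CPM. In the 2 libraries over 4 M counts, with 1 library a group, the ratio of Ang II to PBS was 0.771 for *Mpo*, 0.512 for *Elane*, 0.983 for *Ctsg* and 0.543 for *Ms4a3*, but 1.37 for *Csf1r*. The higher level of *Mpo*, *Elane*, *Ctsg* and *Ms4a3* after Ang II was thus held by the libraries under 4 M counts and was not seen in the pair above. Abundant noncoding RNAs, a list kept as a sign of RNA quality, also set these 2 libraries apart. *Rn7sk* was at 9495, 7762 and 13350.5 CPM after PBS and at 8381, 6832, 6551 and 14683 CPM after Ang II. *Rmrp* was at 691, 661 and 1335 CPM after PBS and at 860.3, 629, 600.4 and 2908 CPM after Ang II. Both were highest in PBS replicate 3 and Ang II replicate 4. The part of depth, of RNA quality and of the *Xist* and Y-linked status in this pattern was not tested.

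Further called genes in the shallower libraries, named because the count is small, were *C3*, *F13a1*, *Ccr2*, *Tifab*, *Gda*, ENSMUSG00000078122 and ENSMUSG00000096768. *C3*, complement component 3 (ENSMUSG00000024164, minus strand of chromosome 17, 57203970 to 57228136), was at 6.5, 12.5 and 23 CPM after PBS and at 50.8, 52.6, 51 and 14.2 CPM after Ang II. Ang II replicates 1 to 3 were nearly equal and above all PBS libraries, and replicate 4 lay within the PBS range. The log2 fold change of *C3* was 1.56 (SE 0.45) with all libraries and 2.43 (SE 0.37, edgeR adjusted p = 0.00549) in those under 4 M counts. *F13a1*, the coagulation factor XIII A chain of monocytes and platelets, was at 56.6, 76.6 and 207 CPM after PBS and at 341, 274, 241 and 152 CPM after Ang II. *Ccr2*, the chemokine receptor of monocytes, was at 20.1, 15.1 and 49.8 CPM after PBS and at 68.7, 78.9, 81.7 and 30 CPM after Ang II. Both repeated the order of *Mpo*, with Ang II replicate 4 below PBS replicate 3, and gave log2 fold changes of 2.10 (SE 0.31) and 2.11 (SE 0.35) in the shallower libraries, and of 1.14 (SE 0.55) and 1.17 (SE 0.59) with all libraries. *Gda*, guanine deaminase, was at 2.17, 2.97 and 10.9 CPM after PBS and at 22.6, 36.6, 41.7 and 4.84 CPM after Ang II, with 3.69 (SE 0.67) in the shallower and 2.25 (SE 0.71) in all libraries. *Tifab* was at 26.3, 17.5 and 75.3 CPM after PBS and at 108, 60.5, 75.1 and 79.4 CPM after Ang II, and gave 1.89 (SE 0.35) and 1.01 (SE 0.46) in the same order. For *Tifab* the PBS replicate 3 alone reached the Ang II levels. ENSMUSG00000078122 was at 87.6, 49 and 146 CPM after PBS and at 269, 131, 208 and 101 CPM after Ang II. Its groups overlapped, with PBS replicate 3 above Ang II replicates 2 and 4. The log2 fold change was 1.57 (SE 0.29, edgeR adjusted p = 0.0256) in the shallower libraries and 0.90 (SE 0.39) in all.

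The promoters shown are those of the myeloid priming genes with an unadjusted p under 0.05 with all libraries, for the 4 that RefSeq's table of mouse promoters holds (build GRCm38.p6) among *Mpo*, *Elane*, *Ctsg*, *Csf1r* and *Ms4a3*. Each runs from 250 bases before to 50 bases after a start of the gene in RefSeq, 5′ to 3′ on the gene's strand, and for *Mpo* and *Elane* that start lies within the gene as annotated in GENCODE. Capitals mark matches, on either strand, to TTNNGNAA for C/EBP factors, GAGGAA for PU.1 and TGTGGT for Runx factors, where a C/EBP match may share bases with a PU.1 match. GAGGAA was found in 4 of the 4 promoters and in 28.3% of the 32851 promoters of the table. TTNNGNAA was found in 1 of the 4, against 40.7% of the table, and TGTGGT in 1 of the 4, against 16.8%. A match is a description of the letters and not a site.
Mpo, chr11:87793534-87793833, plus strand: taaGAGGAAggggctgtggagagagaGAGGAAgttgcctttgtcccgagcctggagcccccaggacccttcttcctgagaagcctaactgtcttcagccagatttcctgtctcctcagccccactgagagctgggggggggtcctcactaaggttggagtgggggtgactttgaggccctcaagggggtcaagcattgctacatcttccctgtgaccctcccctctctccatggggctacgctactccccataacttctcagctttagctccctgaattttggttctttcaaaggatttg
Elane, chr10:79886062-79886361, plus strand: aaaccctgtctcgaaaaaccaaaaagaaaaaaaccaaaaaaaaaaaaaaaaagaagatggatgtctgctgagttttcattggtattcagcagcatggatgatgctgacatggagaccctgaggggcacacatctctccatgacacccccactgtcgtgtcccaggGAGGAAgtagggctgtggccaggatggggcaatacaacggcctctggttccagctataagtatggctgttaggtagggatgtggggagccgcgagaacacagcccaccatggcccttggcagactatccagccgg
Ctsg, chr14:56102525-56102824, minus strand: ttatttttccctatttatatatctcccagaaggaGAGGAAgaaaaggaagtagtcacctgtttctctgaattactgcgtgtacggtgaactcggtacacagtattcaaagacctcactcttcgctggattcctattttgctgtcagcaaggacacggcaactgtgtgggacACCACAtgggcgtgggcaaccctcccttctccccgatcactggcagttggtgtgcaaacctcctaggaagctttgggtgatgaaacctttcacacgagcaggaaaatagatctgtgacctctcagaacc
Ms4a3, chr19:11640802-11641101, minus strand: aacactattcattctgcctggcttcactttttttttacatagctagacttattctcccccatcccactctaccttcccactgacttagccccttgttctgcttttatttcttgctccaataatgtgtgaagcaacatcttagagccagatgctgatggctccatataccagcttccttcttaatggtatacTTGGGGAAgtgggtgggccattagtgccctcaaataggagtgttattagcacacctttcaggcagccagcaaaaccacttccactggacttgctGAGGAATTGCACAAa

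Genes of late neutrophil precursors and neutrophils, which encode secondary granule and S100 proteins, were low after PBS and higher in Ang II replicates 1 to 3. *S100a9*, the most abundant of them per length, was at 0.31, 0.297 and 1.67 CPM after PBS and at 7.45, 25.6, 78.4 and 0 CPM after Ang II. *Ltf*, lactoferrin, was at 0, 0 and 0.209 CPM after PBS and at 4.14, 5.47, 41.7 and 0.932 CPM after Ang II. *Ngp*, neutrophilic granule protein, was at 0, 0 and 1.05 CPM after PBS and at 4.42, 21.9, 55.1 and 0 CPM after Ang II. In each case Ang II replicate 3 was the highest, and Ang II replicate 4 had 0 counts of *S100a9* and *Ngp* and was just above the PBS libraries for *Ltf*. Summed over the 12 listed genes the level was 1.86, 0.297 and 7.53 CPM after PBS and 25.7, 77.6, 264 and 1.68 CPM after Ang II. All 10 tested members were higher after Ang II, 8 with an unadjusted p under 0.05 (1.14% of all genes), against 2 of 10 with limma-voom and 1 of 4 in edgeR on the 7 libraries alone, and the median log2 fold change was 5.12, or 4.96 with the 2 genes absent from every PBS library at their bound. Members near 0 after PBS passed the filter on counts through libraries where they are high, so their direction and number are a description and no support. The median of the list ranged from 2.84 to 6.69 over the 19 alternatives. It was 4.05 without Ang II replicate 3, where 4 of 8 tested members had an unadjusted p under 0.05. *Ly6g*, the surface marker of mature neutrophils, had counts in Ang II replicate 2 alone, at 2.05 CPM, and *Retnlg* in Ang II replicate 3 alone, at 5.48 CPM. The sort removed cells that stain for the lineage markers Gr-1 and CD11b of such cells. In bulk samples such as these, fewer cells of a type and less RNA of a gene per cell cannot be told apart.

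Genes of monocytes and macrophages, as a sum, were high in the same libraries. *Ly6c2* was at 4.02, 13.4 and 23.8 CPM after PBS and at 64.3, 40, 41.7 and 6.71 CPM after Ang II. Summed over the 12 genes the level was 41.8, 47.2 and 112 CPM after PBS and 179, 154, 159 and 63.7 CPM after Ang II. Ang II replicates 1 to 3 again exceeded all PBS libraries and replicate 4 did not. All 6 tested members were higher, 0 of them with an unadjusted p under 0.05 in edgeR, and the median log2 fold change was 0.94 (0.67 to 1.90 over the alternatives). Without PBS replicate 3 it was 1.68. The macrophage markers *C1qa*, *C1qb*, *C1qc*, *Adgre1* and *Cd14* lay between 0 and 2.93 CPM in the 7 libraries, and *Marco* had 0 counts. The part of such cells in the levels of *Mpo* and its neighbours was not tested.

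Erythroid genes were high in Ang II replicates 2, 3 and 4, while the myeloid ones were high in replicates 1 to 3. *Hba-a2*, an alpha-globin gene, was at 5.57, 0.89 and 3.14 CPM after PBS and at 9.94, 227, 60.6 and 89.4 CPM after Ang II. *Slc4a1*, the anion exchanger of the red cell membrane (ENSMUSG00000006574), was at 2.17, 1.48 and 1.05 CPM after PBS and at 3.31, 36.2, 18.4 and 9.69 CPM after Ang II. *Alas2*, the first enzyme of heme synthesis in erythroid cells, was at 1.86, 0.593 and 3.14 CPM after PBS and at 2.21, 36.9, 14.8 and 7.83 CPM after Ang II. Ang II replicate 2 was the highest for all 3 genes, replicates 3 and 4 were above every PBS library, and replicate 1 was the lowest of the Ang II group. The log2 fold changes were 4.91 (SE 1.61) for *Hba-a2*, 3.42 (SE 0.94) for *Slc4a1* and 2.99 (SE 1.00) for *Alas2*. DESeq2 on the 7 libraries with a Y-linked covariate called *Hba-a2* (4.91, SE 1.15, adjusted p = 0.0406) and *Slc4a1* (3.38, SE 0.69, adjusted p = 0.00331), and over the 19 alternatives the adjusted p ran from 0.0406 to 1 for *Hba-a2* and from 0.00331 to 1 for *Slc4a1*. Counts of the near-identical copies *Hba-a1* and *Hba-a2*, or *Hbb-bs* and *Hbb-bt*, may be assigned to either copy, and the sort removed cells that stain for the erythroid marker Ter119. Of the 14 erythroid genes, 11 were higher, 7 of them with an unadjusted p under 0.05 (1.14% of all genes, and 1 of 14 with limma-voom, 4 without Ang II replicate 3), and the groups did not overlap for 4 (28.6%, against 2.07% of all genes). The median log2 fold change was 2.22 (0.78 to 2.58 over the alternatives, and 1.46 without Ang II replicate 2). Members with few counts after PBS, such as *Slc4a1* with 7, 5 and 5, passed the count filter through libraries where they are high. Their direction and number are therefore a description and no support. The median of the list was also above 0 in the other genotypes, at 1.11 in *Apoe*-/-*Il27ra*+/- and 1.06 in *Apoe*-/- HPC-1.

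The erythroid regulators did not share the pattern of the globins. *Klf1* was at 2.17, 3.86 and 6.06 CPM after PBS and at 1.38, 1.03, 1.37 and 18.3 CPM after Ang II, and *Gata1* gave a log2 fold change of −0.23 (SE 0.62). *Klf1* was highest in Ang II replicate 4 and lowest in the other Ang II libraries. *Tfrc*, the transferrin receptor of cells that take up iron, was at 91.3, 112 and 98.3 CPM after PBS and at 127, 152, 191 and 121 CPM after Ang II. All 4 Ang II libraries were above all 3 PBS libraries, with a log2 fold change of 0.55 (SE 0.19). Of the mast cell, basophil and eosinophil genes, 5 of 7 tested were higher with a median of 1.12, which was 0.17 without Ang II replicate 2. *Hdc*, which makes histamine, was their member with an unadjusted p under 0.05, at 8.67, 6.53 and 10.2 CPM after PBS and at 18.5, 24.3, 15.1 and 16.6 CPM after Ang II. Every Ang II library was above every PBS library, with a log2 fold change of 1.12 (SE 0.47).

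Among the genes with all Ang II libraries above all PBS libraries, ranked by p, the first was ENSMUSG00000095562 (plus strand of chromosome X, 170009659 to 170019281). This gene without a proper symbol was at 62.5, 28.5 and 28 CPM after PBS and at 143, 219.7, 142 and 99.9 CPM after Ang II. Every Ang II library was above every PBS library, and the log2 fold change was 1.93 (SE 0.37, edgeR adjusted p = 0.874). It was the gene that DESeq2 called on all libraries (adjusted p = 6.14e-05), and the one edgeR called without PBS replicate 1 (2.42 on the log2 scale, SE 0.38, edgeR adjusted p = 0.0487). Over the 19 alternatives its adjusted p ran from 9.16e-11 to 1. Another gene without a proper symbol, ENSMUSG00000096768 (plus strand of chromosome Y, 90784738 to 90816464), was at 202, 211 and 140.1 CPM after PBS and at 573, 616, 534 and 196 CPM after Ang II. It had counts in the 2 libraries without Y-linked transcripts as well, so some of its counts come from other loci. With all libraries its log2 fold change was 1.38 (SE 0.35), and without Ang II replicate 4 edgeR called it at 1.64 (SE 0.26, adjusted p = 0.0244). In the libraries under 4 M counts edgeR gave 1.47 (SE 0.24, adjusted p = 0.0105).

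*Csf2rb*, the common beta chain of the receptors for GM-CSF, IL-3 and IL-5 (ENSMUSG00000071713, plus strand of chromosome 15, 78325752 to 78353847), was at 73.7, 63.5 and 88.4 CPM after PBS and at 121, 113, 149.6 and 95.4 CPM after Ang II. The groups did not overlap, and the log2 fold change was 0.67 (SE 0.19, 95% interval 0.28 to 1.06). *Lta4h*, which makes leukotriene B4, was at 189, 171 and 169 CPM after PBS and at 283, 265, 298 and 201 CPM after Ang II. *Pgd*, an enzyme of the pentose phosphate pathway, was at 65, 47.2 and 86.3 CPM after PBS and at 96.9, 122, 92.6 and 94.7 CPM after Ang II. Both had all Ang II libraries above the PBS range, with log2 fold changes of 0.57 (SE 0.16) and 0.61 (SE 0.19). *Fn1*, fibronectin, was at 0.619, 1.19 and 5.23 CPM after PBS and at 11.3, 17.8, 18.6 and 5.59 CPM after Ang II. *Emilin2*, a matrix glycoprotein, was at 47.7, 51.3 and 41.4 CPM after PBS and at 59.4, 76.2, 104 and 62 CPM after Ang II. *Igkc*, the constant region of immunoglobulin kappa, was at 3.1, 0.593 and 1.67 CPM after PBS and at 6.07, 3.76, 14.2 and 28.3 CPM after Ang II. The log2 fold changes of these 3 were 2.43 (SE 0.83), 0.69 (SE 0.23) and 2.87 (SE 0.80). The last of the 10 genes named in this direction, ENSMUSG00000097239, had 0 counts after PBS and lay between 0.822 and 5.13 CPM after Ang II.

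Among the lower genes with separated groups, *Prkcq* came first. *Prkcq*, protein kinase C theta (ENSMUSG00000026778, plus strand of chromosome 2, 11172108 to 11301222), was at 60.7, 51 and 29.5 CPM after PBS and at 24.8, 10.9, 21.4 and 27.2 CPM after Ang II. PBS replicate 3 was only just above Ang II replicate 4, and the log2 fold change was −1.14 (SE 0.33, 95% interval −1.83 to −0.46). *H2-Q6*, a nonclassical MHC class I gene with near-identical copies, was at 123, 146 and 104 CPM after PBS and at 82.3, 76.2, 64.9 and 98.2 CPM after Ang II. *Oma1*, a protease of the inner mitochondrial membrane, was at 31, 33.2 and 23.6 CPM after PBS and at 20.2, 13.3, 15.3 and 19 CPM after Ang II. The groups did not overlap for either gene, and the log2 fold changes were −0.63 (SE 0.21) and −0.78 (SE 0.27). *Pla2g16*, a phospholipase, was at 31.3, 42.1 and 32.8 CPM after PBS and at 19.3, 24.6, 15.6 and 20.9 CPM after Ang II. *Psd3*, an exchange factor for ARF6, was at 68.7, 82.5 and 61 CPM after PBS and at 48.3, 45.8, 41.4 and 40.1 CPM after Ang II. Their groups stood further apart, with log2 fold changes of −0.82 (SE 0.30) and −0.69 (SE 0.26). *Rrad*, *Dqx1*, *Cemip*, *Slc26a3* and ENSMUSG00000085341 completed the 10 genes named in this direction, at low levels, none above 11 CPM in any of the 7 libraries.

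Genes of stem cell identity were mostly lower after Ang II. Of 15 tested, 12 were lower and 3 higher. The median log2 fold change was −0.47 (−0.57 to −0.24 over the alternatives). *Mecom* was at 45.2, 41.5 and 31.6 CPM after PBS and at 34.2, 10.9, 20 and 29.1 CPM after Ang II. *Hlf* was at 177, 210.4 and 133 CPM after PBS and at 155, 117, 102 and 127 CPM after Ang II. Both overlapped between the groups, with log2 fold changes of −0.73 (SE 0.42) and −0.47 (SE 0.28). *Gata2*, the most abundant of the list per length, showed little difference, at 0.03 (SE 0.22).

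The neighbouring programs of HPC-1 showed small differences. The 4 genes of the sort gate had a median log2 fold change of −0.05 (−0.31 to 0.09 over the alternatives), the 6 tested lineage genes 0.09 (0.39 without PBS replicate 1) and the 11 multipotent progenitor genes −0.02 (−0.08 to 0.15), with *Flt3* at −0.08 (SE 0.32) and *Cd34* at −0.04 (SE 0.19). The 9 tested early lymphoid genes had a median of −0.02, which was −0.52 with all 9 lower without Ang II replicate 4, and 0.14 without PBS replicate 1. Their most abundant member, *Dntt*, the template-independent polymerase of lymphoid precursors, was at 469.6, 341 and 199 CPM after PBS and at 215, 328, 118 and 307 CPM after Ang II. *Dntt* was spread widely in both groups, with a log2 fold change of −0.47 (SE 0.50). Of 7 tested megakaryocyte genes 6 were lower, with a median of −0.29, and *Itga2b* gave −0.11 (SE 0.24). Of the 13 growth factor receptor genes 6 were higher and 7 lower, with a median of −0.08 that turned to 0.16 without PBS replicate 1, and *Csf1r* and *Csf2rb* were the higher ones with an unadjusted p under 0.05. *Csf3r*, the receptor for G-CSF, was at 183, 206 and 184 CPM after PBS and at 156, 155, 149 and 232 CPM after Ang II. It was lower in Ang II replicates 1 to 3 and higher in replicate 4 than in any PBS library, with a log2 fold change of −0.14 (SE 0.26). *Il3ra*, the IL-3 receptor alpha chain, lay between 2.39 and 17.3 CPM in the 7 libraries, with 0.24 (SE 0.51).

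Interferon-stimulated genes were mostly slightly lower after Ang II in the absence of the receptor. Of 30 type I interferon-stimulated genes, 26 were lower and 4 higher, with a median log2 fold change of −0.31 (−0.40 to −0.21 over the alternatives) against 0.01 for all genes. In edgeR *Ddx60*, an antiviral helicase, was their member with an unadjusted p under 0.05. With limma-voom 9 of the 30 were lower at that limit, against 275 of all 13199 genes. The groups did not overlap for 3 of the 30, which were lower, against 2.18% of all genes. *Ddx60* was at 49.8, 31.5 and 33 CPM after PBS and at 32.9, 22.2, 20.6 and 21.2 CPM after Ang II. Ang II replicate 1 lay within the PBS range of *Ddx60*, and the log2 fold change was −0.65 (SE 0.30). On the log2 scale, *Oas1a*, *Irf9* and *Stat2* gave −0.30 (SE 0.29), −0.32 (SE 0.21) and −0.33 (SE 0.24). The summed level of the 30 genes was 1341, 1270.2 and 1383 CPM after PBS and 1069, 1114, 1054 and 1184 CPM after Ang II. All 4 Ang II sums were below all 3 PBS sums, and the highest of them, in Ang II replicate 4, was nearest to the PBS group.

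Of the 11 tested members of the list of interferon-induced GTPases, 9 were lower, with a median of −0.26 (−0.36 to −0.19 over the alternatives). This list also holds *Irf1* and *Ciita*, and *Ciita* is a member of the MHC class II list as well. *Irf1*, a transcription factor induced by interferons, was at 92.9, 111 and 76.1 CPM after PBS and at 76.5, 64.9, 71 and 74.2 CPM after Ang II. PBS replicate 3 lay just below Ang II replicate 1, and the log2 fold change was −0.38 (SE 0.17). Of 11 MHC class I genes 10 were lower, with a median of −0.09 (−0.21 to −0.06), and *B2m* gave −0.15 (SE 0.17). The 7 tested MHC class II genes had a median of −0.14, with 5 lower, and the sign turned without PBS replicate 3, to 0.10. The 15 tested genes of IL-27R and JAK-STAT signaling had a median of −0.06, with 9 lower, and −0.18 without Ang II replicate 4. *Il6st*, which encodes gp130, the partner chain of IL-27R, was at 125, 103 and 129 CPM after PBS and at 171, 178, 140 and 132 CPM after Ang II. It was the member of that list whose groups did not overlap, with a log2 fold change of 0.38 (SE 0.19). *Socs3*, a feedback inhibitor of the pathway, was at 4.64, 2.37 and 7.53 CPM after PBS and at 3.04, 21.5, 12.9 and 8.94 CPM after Ang II, and overlapped.

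Cell cycle genes showed small differences. The 26 S phase genes had a median log2 fold change of 0.03 (−0.05 to 0.10), the 26 G2 and M phase genes 0.08 (−0.01 to 0.24) and the 15 tested G1 cyclins, kinases and inhibitors −0.03 (−0.10 to −0.01), with 0 genes of the 3 lists at an unadjusted p under 0.05. *Mki67*, the proliferation marker, was at 2332, 3444 and 1795 CPM after PBS and at 2036, 3746, 2719 and 1453 CPM after Ang II. The deep libraries were the lowest of their groups and the groups overlapped, with a log2 fold change of −0.02 (SE 0.33). *Ccnd1* (cyclin D1) and *Cdkn1a* (p21) gave 0.36 (SE 0.34) and 0.15 (SE 0.53). The 24 tested genes of p53 and its targets had a median of 0.03, and *Trp53* lay between 135 and 154 CPM in all 7 libraries. The 55 tested replication-dependent histone genes had a median of −0.02, which was 0.26 without PBS replicate 3 and −0.23 without PBS replicate 1.

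*Myc* was the cell growth regulator with an unadjusted p under 0.05. *Myc* (ENSMUSG00000022346) was at 279, 265 and 449 CPM after PBS and at 410, 528, 427 and 508 CPM after Ang II. PBS replicate 3 lay among the Ang II libraries, and the log2 fold change was 0.50 (SE 0.20). Of the 15 genes of Myc and ribosome biogenesis, 13 were higher, with a median of 0.25 (0.11 to 0.34 over the alternatives, the lowest without Ang II replicate 3), and *Npm1* gave 0.22 (SE 0.20). *Hspa5*, the chaperone of the endoplasmic reticulum, was at 409, 337 and 527 CPM after PBS and at 664, 646, 797 and 453 CPM after Ang II. It repeated the order of *Mpo*, with Ang II replicate 4 below PBS replicate 3, and gave 0.59 (SE 0.25), while the 12 heat shock genes had a median of 0.10 (−0.06 without Ang II replicate 3). The 15 glycolysis genes had a median of 0.17 (0.04 to 0.27, the lowest without Ang II replicate 3), with 13 higher. *Gapdh* gave 0.24 (SE 0.18). The 90 tested genes with Rpl and Rps symbols, most of them cytosolic ribosomal protein genes but with the *Rps6k* kinases and *Rps19bp1* among them, had a median of −0.02, the 25 nuclear oxidative phosphorylation genes 0.04 and the 21 tested cholesterol genes −0.12 (−0.19 to 0.07), each with 0 genes at an unadjusted p under 0.05. None of the 13 genes of mitochondrial DNA is in the deposited table.

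Of the 16 renin-angiotensin genes, 14 had a count in the 7 libraries, with a summed level between 391 and 459 CPM, and *Agtrap* was the most abundant per length. *Agtr1a*, the main receptor of Ang II, was at 0, 0 and 0.209 CPM after PBS and at 0.276, 0, 0.274 and 0.559 CPM after Ang II. Every library was below its floor of 3 counts or at it, so a level of *Agtr1a* was not detectable at this depth. *Agt* and *Ren1* had 0 counts in the 7 libraries. The 6 tested members of 16 had a median log2 fold change of 0.05, and *Agtrap*, the type 1 receptor-associated protein, gave −0.26 (SE 0.24). The 20 tested inflammatory and NF-kB genes had a median of 0.01 and the 10 homing and adhesion genes 0.06 (−0.03 without PBS replicate 3). That of the 6 tested abundant noncoding RNAs was 0.01, and it ran from −0.33 to 0.13 with 1 library left out. The 17 tested immediate early genes had a median of −0.03. *Jun* was at 339, 139 and 83.4 CPM after PBS and at 119, 219, 148 and 155 CPM after Ang II, and PBS replicate 1 stood highest. Without PBS replicate 1 that median was 0.51, with 13 of 17 genes higher, and in the libraries under 4 M counts it was −0.45, with 13 of 17 lower.

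**Figure D3:**
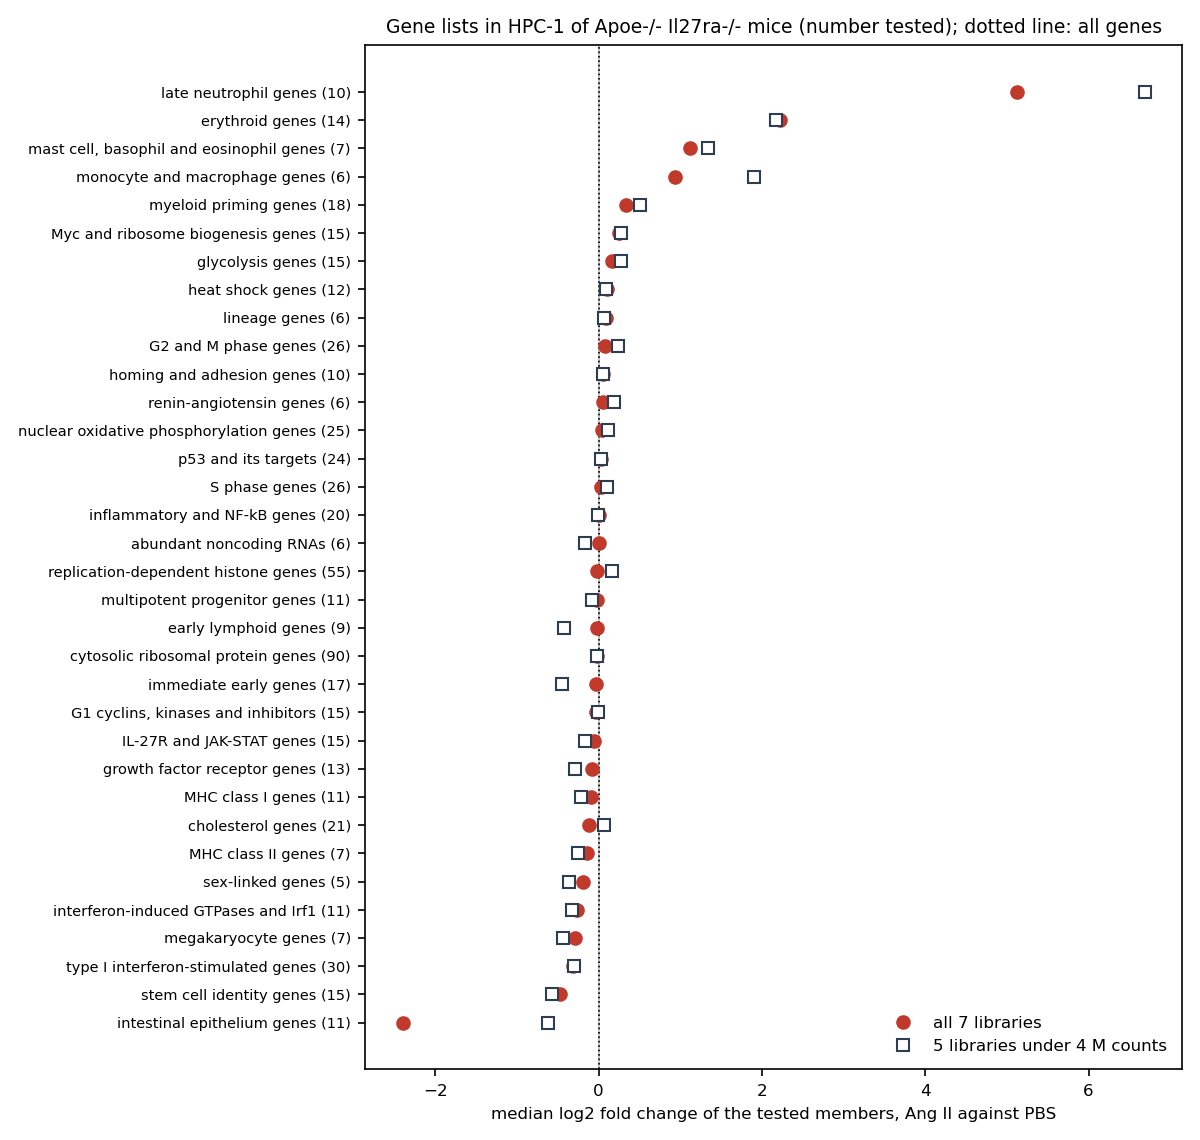
Median log2 fold change of the tested members of each gene list (number tested in brackets), Ang II against PBS in *Apoe*-/-*Il27ra*-/- HPC-1, with all 7 libraries (circles) and with the 5 under 4 M counts (squares); the ribosomal list includes the *Rps6k* kinases. The dotted line is the median of all genes, 0.01, and the late neutrophil list lies farthest above it at 5.12.

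Markers of tissues outside the BM were looked for in the same way. Intestinal epithelium genes had a median log2 fold change of −2.40 over 11 tested, or −0.97 over 9 with the 3 genes absent after Ang II at their bound. Their summed level was 4.33, 38.3 and 8.99 CPM after PBS and 6.35, 5.47, 6.58 and 6.34 CPM after Ang II. PBS replicate 2 alone was high, with *Cdh17* at 10.7 CPM and *Muc2* at 9.79 CPM, and *Muc2* had 0 counts in the other 6 libraries. Without PBS replicate 2 the median of the list was −0.19, and without PBS replicate 3 it was −0.39. The single tested hepatocyte gene, *Trf*, gave 0.01 (SE 0.24), and the 3 tested keratinocyte genes had a median of −0.26 (−0.63 to 0.19). Stromal and vessel genes summed to between 2.67 and 10.7 CPM, with 1 gene tested at 0.68 (5.10 without PBS replicate 3). The 2 tested B and plasma cell genes had a median of 0.57, which was −0.27 over 1 tested gene without Ang II replicate 4. For the 2 tested T and NK cell genes it was −0.73 (−0.93 to 0.08 over the alternatives). *Cd79a*, *Ncr1* and *Gzma* had 0 counts in the 7 libraries.

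The difference of the Ang II effect between genotypes was then tested, which asks whether HPC-1 respond in another way without IL-27R. Against *Apoe*-/-*Il27ra*+/- HPC-1, edgeR called 0 of 13199 genes (0%), with 169 (1.28%) at an unadjusted p under 0.05. Against *Apoe*-/- HPC-1 it called 0 (0%), with 451 (3.42%) at an unadjusted p under 0.05. The contrasts compared share no control library. *Mpo* had a log2 fold change of 0.67 (SE 0.24) in *Apoe*-/-*Il27ra*-/-, 0.78 (SE 0.24) in *Apoe*-/-*Il27ra*+/- and −0.17 (SE 0.28) in *Apoe*-/- HPC-1. The difference from *Apoe*-/-*Il27ra*+/- was −0.11 (95% interval −0.81 to 0.59) and that from *Apoe*-/- was 0.84 (0.07 to 1.61). The median of the myeloid priming list was 0.34, 0.77 and −0.30 in the 3 genotypes in that order, and that of the type I interferon-stimulated genes −0.31, −0.29 and 0.05. In *Apoe*-/- mice *Mpo* was at 5257 and 5843 CPM after PBS, above all 3 PBS libraries of *Apoe*-/-*Il27ra*-/-, and at 3998, 5187 and 5591 CPM after Ang II.

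*C3* was among the 3 genes with the smallest p against *Apoe*-/-. It was at 38 and 66.2 CPM after PBS and at 22.1, 33.1 and 26.6 CPM after Ang II in *Apoe*-/- HPC-1, which is the opposite order to that without IL-27R. The difference in log2 fold change was 2.49 (95% interval 1.10 to 3.89, edgeR adjusted p = 1). *Igkc*, likewise among the 3, gave a difference of 4.36 (1.99 to 6.73), and *Zfp850*, the last of them, lay between 0 and 5.78 CPM in the 7 libraries. With only the libraries under 4 M counts, which hold all 5 libraries of *Apoe*-/- HPC-1, edgeR called 4 of 12872 genes against *Apoe*-/-, with 473 at an unadjusted p under 0.05. edgeR gave these as *Elane* (difference 3.12, SE 0.43, adjusted p = 0.00505), *C3* (3.36, SE 0.49, adjusted p = 0.00505), *Mpo* (1.33, SE 0.23, adjusted p = 0.0416) and *Ly6c2* (3.88, SE 0.69, adjusted p = 0.0443). For each of them the libraries without IL-27R left out here were the highest PBS and the lowest Ang II library. Against *Apoe*-/-*Il27ra*+/- the same libraries gave 0 calls by edgeR, with 290 genes at an unadjusted p under 0.05. Of the 3 genes with the smallest p against *Apoe*-/-*Il27ra*+/-, ENSMUSG00000095562 differed by 1.64 (95% interval 0.58 to 2.69), and *Cstad* and ENSMUSG00000078875 were under 10 CPM in the 7 libraries.

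Whether HPC-1 and LT-HSC of *Apoe*-/-*Il27ra*-/- mice responded differently was tested in a model of all 36 libraries. edgeR called 0 of 18013 genes (0%), with 424 (2.35%) at an unadjusted p under 0.05. That number was 190 of 17956 genes without LT-HSC PBS replicate 2, which lay at the level of HPC-1 in its markers. *Dntt*, among the 3 genes with the smallest p, was at 0, 260.2 and 9.03 CPM in LT-HSC after PBS and at 0, 2.59, 0 and 1.1 CPM after Ang II, and at 209 to 483 CPM and 125 to 334 CPM in HPC-1. PBS replicate 2 held most of the *Dntt* counts of LT-HSC, and the difference in log2 fold change was 6.27 (SE 1.63) with it and 2.26 (SE 1.26) without it. *Drc7*, likewise among the 3, gave 5.05 (SE 1.35) with and 0.44 (SE 1.12) without it, and the last of them was ENSMUSG00000097239. For *Mpo* the difference turned from 2.77 (SE 1.83) to −1.57 (SE 1.67) when that library was left out. Without it, LT-HSC Ang II replicate 2 alone was high, at 1109.6 CPM against 1.02 to 20.1 CPM in the other Ang II libraries of LT-HSC. *Prkcq* kept its sign, at −1.47 (SE 0.46) with and −1.10 (SE 0.43) without it, and lay between 33.1 and 108 CPM in the LT-HSC libraries of this genotype.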

How the data were processed

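RNA-seq counts of 36 libraries were used as deposited. They are expected counts per gene that the authors made with RSEM on mm10. The paper names STAR and RSEM v1.2.12, the deposited notes Bowtie2 and RSEM 1.2.31, and the Ensembl release is not stated. All values were checked to be whole numbers (0 were not), and 37570 of 38887 identifiers had a symbol in GENCODE M21. The 6 groups of HPC-1 were fitted with edgeR 4.0.16 in R 4.3.3 (filterByExpr, TMM, robust quasi-likelihood F-test, Benjamini-Hochberg adjustment), and all 12 groups for the comparison with LT-HSC. The pipeline was tested on simulated data. Members and gene lists (41 lists, 669 genes) were chosen with earlier results of these data known. Named genes are, per direction, the 10 with the smallest p whose groups do not overlap, list members with an unadjusted p under 0.05, each list's most abundant member, genes fixed by name, and 3 genes per difference of effects. *F13a1*, *Ccr2*, *Tifab*, *Prtn3*, *Gda*, *Ly6c2*, ENSMUSG00000078122, ENSMUSG00000096768 and the other genes named outside this rule were chosen after their values were seen. Alternatives were DESeq2 1.42.0, limma-voom (limma 3.58.1) with sample weights, upper-quartile normalization, no or a stricter count filter, a fit without the robust option, a replicate block, a Y-linked covariate, libraries under 4 M counts, thinning to the lowest total, the 7 libraries alone, and leaving out each library.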

Additional observations from a re-analysis of the deposited data

Results flagged for a closer look

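In the Ang II group, 145 values over its 4 libraries were examined for 1 library far from the other 3, by the gap to the nearest library as a share of the range against Dixon's 95% limit, and 13 passed. Chance flags about 1 in 20 groups, and the genes are not independent of each other.

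Ang II replicate 4 stood apart for *Xist* (3626 CPM) and with it for the summed sex-linked genes (also 3626 CPM). It also stood apart as the lowest for *C3* (14.2 CPM), as the highest for *Csf3r* (232 CPM), and as the sole library with counts of *Cdh17* (0.373 CPM). Ang II replicate 3 was far above the others for the neutrophil genes *Ltf* (41.7 CPM), *S100a8* (21.4 CPM) and *Chil3* (14.2 CPM). It was also the highest for *Mcm6*, a subunit of the replicative helicase (767 CPM), and for *Hsp90ab1*, a cytosolic chaperone (5821 CPM). Ang II replicate 1 was apart for *Ddx60* (32.9 CPM, the highest) and for *Trp53* (135 CPM, the lowest). Ang II replicate 2 was the highest for *Pgd* (122 CPM).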

How the results depend on the processing

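With edgeR and all libraries 0 genes passed for Ang II against PBS (244 at an unadjusted p under 0.05, limma-voom 0), and this number stayed at 0 under 12 of 19 alternatives. It was 1 with DESeq2, 10 (8 higher, 2 lower) without a count filter, 12 with only the libraries under 4 M counts, 8 (7 higher, 1 lower) with DESeq2 on the 7 libraries with the Y-linked covariate, and 0 to 1 when a library was left out. Of the genes named by the rule, which leaves out those chosen after their values were seen, none passed with all libraries in edgeR, while 1 did with DESeq2, 6 without the filter, 5 under 4 M counts, 4 with DESeq2 on the 7 libraries and 0 to 1 with a library left out. The differences of effects stayed at 0 calls in edgeR except without the filter, with 2 against *Apoe*-/-*Il27ra*+/-, 4 against *Apoe*-/- and 100 against LT-HSC, and under 4 M counts, with 4 against *Apoe*-/-. The cause was not tested.

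With replicate number as a block, 1 gene passed in edgeR (ENSMUSG00000096768, 398 at an unadjusted p under 0.05). The labels do not say that equal numbers share a batch.

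None of the 49 named genes with an unadjusted p under 0.05 changed sign under an alternative that gave it a value. The alternatives reuse the libraries in which these genes were chosen, so this is no independent check. The pair of libraries over 4 M counts was not fitted alone. In it *Mpo*, *Elane* and *Ms4a3* were lower after Ang II, while *Csf1r* was higher. With about 3 to 5 M counts per library, genes near the floor have wide intervals.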

Other observations

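Further members of the lists kept to the libraries described. *Hbb-bs*, a beta-globin gene, was at 4.95, 2.08 and 3.14 CPM after PBS and at 5.8, 172, 44.7 and 36.1 CPM after Ang II, and like *Hba-a2* highest in Ang II replicate 2. *Parp9*, an interferon-stimulated ADP-ribosyltransferase, was at 67.8, 87.8 and 68.1 CPM after PBS and at 64.6, 38.3, 67.1 and 56.8 CPM after Ang II, with every Ang II library below the PBS group. *Ifih1*, the RNA sensor MDA5, was at 61.3, 57.3 and 52.3 CPM after PBS and at 41.7, 49.6, 48.5 and 39.7 CPM after Ang II, and the groups were again apart. *Srebf2*, the transcription factor of cholesterol synthesis, was at 183, 185 and 186 CPM after PBS and at 173, 65.6, 140 and 191 CPM after Ang II, where Ang II replicate 2 was lowest. Of the 5 sex-linked genes all had a log2 fold change under 0, with a median of −0.19 (−0.69 to 1.69 over the alternatives).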
